A study of Mus musculus with 4 samples.

Results

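Open chromatin was examined around 10 genes that let resting cells enter division or hold them back, in hair follicle stem cells of mice with and without the transcription factors NFIB and NFIX. A peak belonged to a gene when its summit lay in, or within 100 kb of, the body of that gene and no other protein-coding gene was nearer. Overlapping peaks of the 2 genotypes, by 1 bp or more, made up 1 region. The rule gave 82 regions, made of 73 wild-type and 68 knockout peaks, of 79122 regions in all and of 70877 that lay within 100 kb of any protein-coding gene. The genes were the D-type cyclin genes Ccnd1, Ccnd2 and Ccnd3, the kinase gene Cdk6, Myc, and the inhibitor genes Cdkn1a, Cdkn1b, Cdkn1c, Cdkn2b and Cdkn2c.

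Chromatin was profiled by ATAC-seq, in which a transposase cuts open DNA and tags it for sequencing, in sorted cells of dorsal skin taken from males aged 70 postnatal days, in the second resting phase (telogen) of the hair cycle. The 2 control mice (WT) had the genotype NFIBfl/fl;NFIXfl/fl;R26-YFPfl/fl, so they carried the floxed alleles and the Cre reporter but no Cre, and the 2 knockout mice (dKO) carried Sox9-CreER in addition. Sox9-CreER is active in Sox9-expressing cells and marks their descendants, and when Cre was induced is not given in the sources used here. Cells of both genotypes were DAPI-negative, Sca-1-negative, integrin alpha 6-positive and CD34-positive, while YFP was required of dKO cells only, so the gates differed. Both mice of a genotype share a single peak list, so differences between genotypes have no replicate check and no p-value is given.

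Entry into the division cycle turns on the retinoblastoma protein, which D-type cyclins bound to CDK4 or CDK6 phosphorylate so that E2F factors are released. Inhibitors of the INK4 family (Cdkn2b, Cdkn2c) bind CDK4 and CDK6 themselves, and those of the Cip/Kip family (Cdkn1a, Cdkn1b, Cdkn1c) bind cyclin-kinase complexes. MYC raises transcription of growth genes. Hair follicle stem cells stay quiescent through most of the hair cycle and divide briefly at its start.

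The median pileup, the number of reads or fragments stacked on a peak's summit, was 73 for WT peaks and 38 for dKO peaks. Pileups were therefore divided by the median of their own list, and the log2 of dKO over WT was taken for regions found in both lists. Over all shared regions near genes the median of this log2 ratio was −0.15, and it was 0.01 when the median of the shared regions was the scale instead, so single values are read against that shift. Intervals on ratios are exact 95% intervals for the 2 pileups and cover counting error only. To describe the sorted cells, peaks within 1 kb of a gene end were counted at marker genes. The 12 bulge genes include Cd34 and Itga6, which encode the sorting markers, and Sox9, the gene of the Cre line. These are no independent check of cell identity. Such a peak was found in both lists at 11 of the 12, these included, and at Nfatc1 in neither. Of 4 basal epidermis genes 3 had one in WT and 2 in dKO, Krt14 being without one in dKO. Of markers of other skin cells, 3 of 8 melanocyte, 2 of 6 fibroblast and 2 of 5 endothelial genes had such a peak in both lists, and of 6 immune genes 2 had one in WT and 1 in dKO. The summed highest scaled pileup of these genes in WT and dKO was 45.7 and 39.7 for bulge, 13.97 and 7.58 for basal epidermis, 15.5 and 15.03 for melanocyte, 3.67 and 2.42 for fibroblast, 1.77 and 1.18 for endothelial and 3.44 and 1.61 for immune genes. The melanocyte genes Dct, Tyr, Tyrp1, Mlana and Sox10 had no such peak in either list. Neither did Pdgfra, Pecam1 and Ptprc, nor the basal epidermis gene Trp63. Pmel, Mitf, Kit, Col1a1, Col1a2, Kdr, Tek and Cd68 had one in both lists. The highest scaled pileup at Pmel was 9.15 in WT and 8.61 in dKO, above that of every bulge gene, and at Mitf it was 6.18 and 6.05. Marker peaks were taken by distance to a gene end alone. A peak near a marker, that at Pmel included, may therefore belong to a neighbouring gene. The part of other cells in the results below was not tested.

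Promoter sequences show which start of a gene lay in open chromatin. RefSeq start sites with sequence (GRCm38.p6, the assembly that mm10 names) were at hand for 6 of the 10 genes, at 9 starts, and 8 of the 9 lay wholly or partly under a peak in both lists. The exception was the upstream start of Cdkn1a, which encodes the p53-induced inhibitor p21. Neither list had a peak over its 250 bases, and the nearest peak edge lay 2410 bp away in WT and 2415 bp away in dKO. The downstream start of Cdkn1a was covered in full in both lists, with the summit 15 bp past the start in WT and 21 bp before it in dKO. The promoters, the 250 bases before each start read along the gene, are given to compare these Cdkn1a starts with those of p27 (Cdkn1b), p15 (Cdkn2b) and Cdk6. Capitals mark the half-site bound by NFI proteins, TTGGC, or GCCAA where it lies on the other strand.
Cdkn1a upstream start (chr17:29090729-29090978, plus strand): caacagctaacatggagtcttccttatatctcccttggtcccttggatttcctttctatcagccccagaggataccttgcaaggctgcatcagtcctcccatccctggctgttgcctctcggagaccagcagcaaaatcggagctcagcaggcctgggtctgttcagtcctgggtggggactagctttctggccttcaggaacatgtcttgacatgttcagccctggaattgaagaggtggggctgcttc
Cdkn1a downstream start (chr17:29093519-29093768, plus strand): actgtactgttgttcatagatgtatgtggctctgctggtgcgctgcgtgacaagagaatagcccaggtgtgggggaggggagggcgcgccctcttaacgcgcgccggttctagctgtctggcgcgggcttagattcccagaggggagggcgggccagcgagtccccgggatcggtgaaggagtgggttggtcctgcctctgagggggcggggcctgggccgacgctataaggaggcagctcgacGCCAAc
Cdkn1b (chr6:134920151-134920400, plus strand): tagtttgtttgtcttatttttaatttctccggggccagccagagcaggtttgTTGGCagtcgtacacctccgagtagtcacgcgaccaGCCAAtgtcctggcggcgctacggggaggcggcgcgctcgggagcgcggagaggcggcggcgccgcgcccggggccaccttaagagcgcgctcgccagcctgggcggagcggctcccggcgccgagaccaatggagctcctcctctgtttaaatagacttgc
Cdkn2b (chr4:89311033-89311282, minus strand): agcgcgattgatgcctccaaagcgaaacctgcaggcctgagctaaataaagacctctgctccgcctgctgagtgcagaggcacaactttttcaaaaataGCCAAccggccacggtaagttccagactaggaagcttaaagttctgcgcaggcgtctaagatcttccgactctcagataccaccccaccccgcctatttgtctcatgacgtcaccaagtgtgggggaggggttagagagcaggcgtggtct
Cdk6 (chr5:3343643-3343892, plus strand): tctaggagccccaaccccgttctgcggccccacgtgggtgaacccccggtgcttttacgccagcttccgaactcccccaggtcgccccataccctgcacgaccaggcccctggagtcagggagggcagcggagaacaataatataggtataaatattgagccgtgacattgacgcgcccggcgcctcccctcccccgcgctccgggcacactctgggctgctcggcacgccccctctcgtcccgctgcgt
The half-site occurred 2 times in the Cdkn1b promoter, 1 time each in those of Cdkn2b and the downstream Cdkn1a start, and not in the other 6 member promoters, which include both starts of Ccnd3 and of Cdkn2c. It occurred in 41.5% of all 32851 promoters of the same length, so its presence is common. The full NFI palindrome, 2 half-sites facing each other, was in 0.0365% of all promoters and in none of the 9. The GC box GGGCGG (or CCGCCC) was in 32.7% of all promoters, 3 times in the Cdkn2c promoter at its outer start, 2 times at the downstream Cdkn1a start and 0 times at the upstream one, and the E2F site TTTCCCGC (or GCGGGAAA), present in 0.895% of all, was in none of the 9.

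The promoters of Cdkn1b, Cdkn2b and Cdk6 had near-equal scaled pileup in both lists, and that of Cdkn1a was lower in dKO. At Cdkn1b the promoter region (chromosome 6, 134919981 to 134921376, mm10) had a pileup of 482 in WT and 225 in dKO, a log2 ratio of −0.16 (−0.39 to 0.07). At Cdkn2b the region over the start (chromosome 4, 89310203 to 89311461) had 235 and 140, a log2 ratio of 0.19 (−0.12 to 0.50). The Cdk6 promoter region (chromosome 5, 3341425 to 3344787), the strongest of that gene, had 458 and 250, a log2 ratio of 0.07 (−0.16 to 0.29). All 3 intervals include 0, on this scale. The downstream Cdkn1a start (chromosome 17, 29093388 to 29096035) stood lower in dKO, at 367 in WT and 122 in dKO with a log2 ratio of −0.65 (−0.95 to −0.35). Its deposited fold enrichment, which divides the pileup by the local background, went the other way, from 5.18 in WT to 6.61 in dKO.

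Most regions of these genes were found in both genotypes. Of the 82 regions, 58 were shared (70.7%, Wilson 95% interval 60.1 to 79.5), 15 were in the WT list only (18.3%, 11.4 to 28.01) and 9 in the dKO list only (10.98%, 5.88 to 19.6). Over all regions near genes the shares were 66% shared, 21.2% WT-only and 12.8% dKO-only. The members' shares lay near this background and their intervals include it. These Wilson intervals treat regions as independent, though many lie side by side at the same gene. They also leave out differences between mice, so they are descriptions and no test. Among the 5 genes that drive entry (the cyclins, Cdk6 and Myc), 12 regions were WT-only, 5 dKO-only and 42 shared. For the 5 inhibitor genes these counts were 3, 4 and 16. Whether a region was open in fewer cells or less open in each cell cannot be told apart in these bulk profiles. Gene by gene the counts were small: Myc had 6 WT-only and 0 dKO-only regions, Ccnd1 had 3 and 0, and Cdk6 had 1 and 4. The WT-only share was 28.6% at Myc (Wilson 95% interval 13.8 to 49.96) and 33.3% at Ccnd1 (12.1 to 64.6). The dKO-only share at Cdk6 was 28.6% (11.7 to 54.6). These intervals include the shares over all regions near genes, with the same limits.

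**Figure D1:**
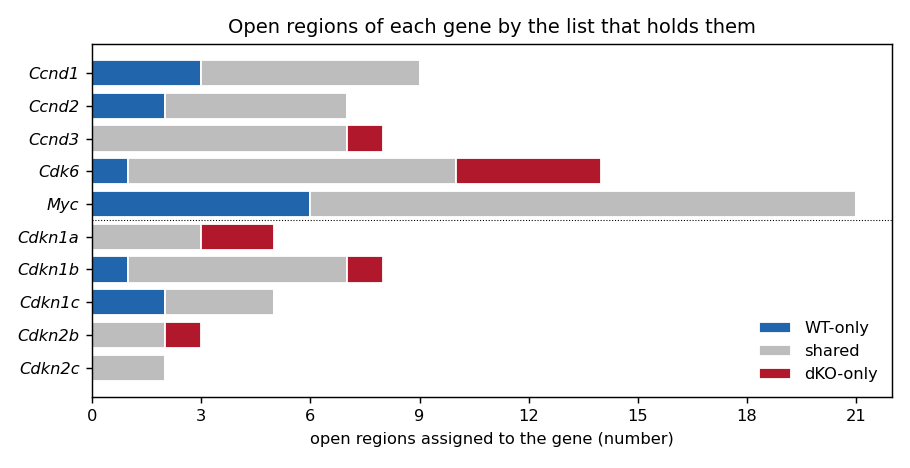
Number of open regions assigned to each gene (x axis), split by the list that holds them: WT-only (blue), shared (grey) and dKO-only (red). The drivers of entry are above the dotted line and the inhibitors below it. Myc has the most regions, 21, and its 6 single-list regions are all in the WT list, while 4 of the 5 at Cdk6 are in the dKO list.

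Among the 58 shared regions, 8 were more than 2-fold lower in dKO on the scaled pileup and 3 more than 2-fold higher. Over all shared regions near genes 8.8% were past 2-fold lower and 6.34% past 2-fold higher, against 13.8% and 5.17% of the members'. Of the 8 lower regions 6 belonged to Myc, 1 to Ccnd1 and 1 to Cdkn1a, and the 3 higher ones all belonged to Cdk6. Without Myc, 2 of 43 shared regions were past 2-fold lower, 4.65%. The median log2 ratio of the 58 was −0.14, close to that of all shared regions, and it was 0.19 when deposited fold enrichment was compared. On fold enrichment 2 regions were past 2-fold lower and 2 past 2-fold higher, 3.45% each, against 2.62% and 2.29% of all shared regions near genes. After subtraction of the median of regions of like height, which was tried once the data were known, 6 were lower and 4 higher (10.3% and 6.90%), against 6.57% and 7.48% of all.

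**Figure D2:**
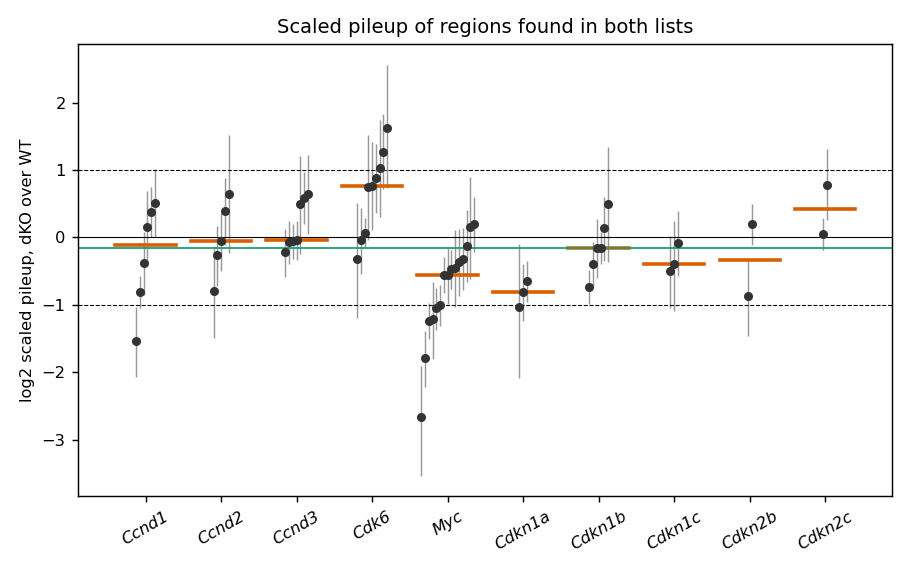
Log2 scaled pileup in dKO over WT (y axis) of every shared region, grouped by gene (x axis), with exact 95% counting intervals as grey bars. Orange bars are gene medians, the green line is the median of all shared regions near genes and dashed lines mark 2-fold. Myc regions reach down to −2.67 and Cdk6 regions up to 1.63, while the Ccnd3 regions all lie within 2-fold.

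Myc (gene 17869, chromosome 15, 61985341 to 61990361) had the most regions of the 10 genes, from 98.97 kb on its lower-coordinate side to 93.2 kb on its higher-coordinate side. Of its 15 shared regions 13 had a log2 ratio below 0, with a median of −0.55 (0.19 on fold enrichment), and 6 were past 2-fold lower (1 on fold enrichment). Over all shared regions near genes 61.0% had a log2 ratio of scaled pileup below 0. The region over the gene itself (61984776 to 61988095), which held 1 WT and 2 dKO peaks, had 370 in WT and 139 in dKO, a log2 ratio of −0.47 (−0.76 to −0.19). The lowest ratio was at a region 13.9 kb past the higher-coordinate end (62003683 to 62004647). Its pileup was 183 in WT and 15 in dKO, a log2 ratio of −2.67 (−3.53 to −1.91), and its deposited fold enrichment was 10.2 in WT and 4.10 in dKO. It was thus lower in dKO by both measures.

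The next lowest ratio of Myc was at a region 78.3 kb away inside Pvt1, a long noncoding RNA gene next to Myc (62068109 to 62069274). It had 378 in WT and 57 in dKO, a log2 ratio of −1.79 (−2.22 to −1.38). The tallest WT region of Myc, 71.7 kb on the other side (61913389 to 61914283), had 656 in WT and 145 in dKO, a log2 ratio of −1.24 (−1.51 to −0.97). The remaining 3 past 2-fold had log2 ratios of −1.21, −1.05 and −1.004, at 93.2 kb, 1.67 kb and 53.5 kb past the higher-coordinate end. The intervals of all 3 (−1.80 to −0.66, −1.37 to −0.75 and −1.31 to −0.71) reached to both sides of the 2-fold line. On fold enrichment the tallest region was about level, at 10.8 in WT and 10.9 in dKO. The regions at 1.67 kb (4.79 and 5.94) and 53.5 kb (13.5 and 14.8) were higher in dKO on it. Those at 78.3 kb (12.5 and 10.8) and 93.2 kb (2.83 and 2.37) were lower, within 2-fold. The other 2 regions of Myc had log2 ratios above 0, one 1.77 kb before the gene (141 in WT, 84 in dKO, log2 0.19) and one at the far edge (43 in WT, 25 in dKO, log2 0.16).

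Local background at the Myc regions was lower in dKO too. The local background that the authors' caller set for each shared Myc region had a median of 9.71 times the list's lowest background in WT and 4.51 times in dKO, with a median log2 ratio of −0.99, against −0.22 over all shared regions near genes. Fold enrichment divides by that background, and on it 10 of the 15 regions were higher in dKO, with a median log2 ratio of 0.19. Over all shared regions near genes 58.0% were higher in dKO on fold enrichment, with a median of 0.075, so on that measure the count at Myc lay near the background. With the median of regions of like height subtracted, the median was −0.29 and 4 regions were past 2-fold lower.

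The 6 WT-only regions of Myc held WT pileups from 19 to 198. The tallest, 3.87 kb past the gene (61994057 to 61994495), had a pileup of 198 and a fold enrichment of 2.87 over a high local background, and the nearest dKO peak was 1257 bp away. The 3 with the highest deposited −log10 q were one 38.3 kb past the gene (62028443 to 62028887), with a pileup of 57 and a −log10 q of 36.4, the tallest one, at 34.8, and one 84.8 kb before it (61900137 to 61900822), with 49 and 28.4. The counts were again 6, 0 and 15 after WT peaks had been thinned to the background of dKO. That step removed only 1375 of 68192 WT peaks, so it could change few counts and is no check of depth. Scaled to the dKO median, the WT pileups of the 6 were 9.89 to 103. The lowest pileup called in dKO at its lowest background was 9. The tallest of the 6 and the one at 62048850 to 62049337 had WT local backgrounds of 68.3 and 16.1, above the lowest, 5.29. The floor of 9 may be too low for them. Whether any of the 6 were missed in dKO through depth was not tested. Among 15902 genes with a region, 216 (1.36%) had a net excess of WT regions at least as large as that of Myc. Among the 383 genes with at least 15 shared regions, 5, Myc among them, had 40% or more of these past 2-fold lower. These ranks are not adjusted for the number of regions or for gene density. The genes with these same counts (6, 0 and 15) were Galnt2 (median log2 −0.47), Bcar3 (−0.77) and Myo10 (−0.20).

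**Figure D3:**
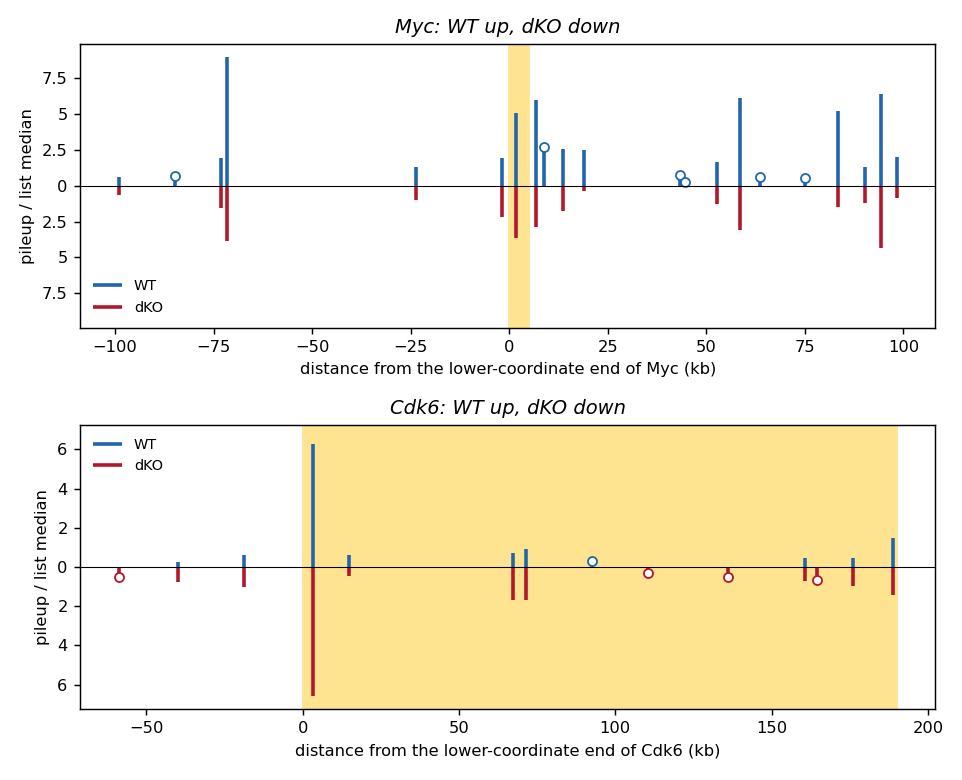
Summit pileup divided by the list median (y axis, WT upwards in blue, dKO downwards in red) at each region of Myc (top) and Cdk6 (bottom), against distance in kb from the lower-coordinate end of the gene. The gene body is shaded and open circles are regions found in 1 list. At Myc the WT bar is the taller one in 13 of 15 shared regions, the exceptions being 2 on the lower-coordinate side, and at Cdk6 the promoter bars are about level, 6.27 in WT and 6.58 in dKO, while several smaller regions are taller in dKO.

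Cdk6 (gene 12571, chromosome 5, 3341004 to 3531008) leaned the other way from Myc on scaled pileup, but not on fold enrichment, where both medians were 0.19. It encodes a kinase partner of the D-type cyclins and has the longest body of the 10 genes, 190 kb. The median log2 ratio of its 9 shared regions was 0.77, with 7 above 0. Region 3300912 to 3301716, which lies 39.8 kb before the gene and within the noncoding gene Gm36470, had a pileup of 18 in WT and 29 in dKO, a log2 ratio of 1.63 (0.73 to 2.57). The region at 3407700 to 3408519, inside the gene, had 51 and 64, a log2 ratio of 1.27 (0.72 to 1.83), and one at 3516632 to 3517249 had 34 and 36, a log2 ratio of 1.02 (0.31 to 1.74). These are low regions, and the raw pileups of the last pair of values nearly match before scaling. On fold enrichment the first stayed past 2-fold, at 3.02 in WT and 8.05 in dKO.

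The 4 dKO-only regions of Cdk6 had pileups of 12 to 26. The one with the highest −log10 q (3505274 to 3505769, inside the gene) had a pileup of 26 and a −log10 q of 11.9, followed by 3476886 to 3477389 with 20 and 9.60. The third lay 58.7 kb before the gene (3282232 to 3282572), with 19 and 8.74. The 1 WT-only region (3433314 to 3433733) had a pileup of 21. Among 2815 genes with at least 5 shared regions, 2.70% had a median log2 ratio as high as that of Cdk6. Zfp407 (0.36), Rasgef1b (0.12) and Prkcq (−0.66) had the same counts (1, 4 and 9).

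The 3 D-type cyclin genes, whose proteins activate CDK4 and CDK6, had 24 regions, of which 5 were WT-only, 1 dKO-only and 18 shared. Ccnd1 (gene 12443, chromosome 7, 144929931 to 144939831) had the most, 9. The region at its higher-coordinate end (144939228 to 144939814) had 81 in WT and 60 in dKO, a log2 ratio of 0.51 (0.0025 to 1.01). A pair of regions more than 30 kb beyond that end was lower. Its tallest region (144970781 to 144971770, 31.4 kb away) had 646 and 192, a log2 ratio of −0.81 (−1.05 to −0.57), and the neighbour at 144973043 to 144973822 had 212 and 38, a log2 ratio of −1.54 (−2.08 to −1.03). The tallest region went the other way on fold enrichment (8.76 in WT, 11.96 in dKO), and the neighbour was 2.86 and 2.40. The 3 WT-only regions lay 24.4, 41.8 and 44.7 kb past the same end, with WT pileups of 21, 51 and 34.

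Ccnd2 (gene 12444, chromosome 6, 127125162 to 127152188) had 2 WT-only and 5 shared regions, none past 2-fold. Its WT-only regions sat among shared ones near the higher-coordinate end, where the local background was high. The one 491 bp past that end (127152582 to 127152889) had a pileup of 112, a fold enrichment of 2.29 and a dKO peak 345 bp away, and the one inside the gene (127147759 to 127148095) had 106, 2.98 and a dKO peak 1345 bp away. The shared region at the gene end (127151303 to 127152237) had 88 in WT and 60 in dKO, a log2 ratio of 0.39 (−0.11 to 0.88). The tallest shared region, just outside (127153570 to 127154226), had 143 and 62, a log2 ratio of −0.26 (−0.72 to 0.18).

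Ccnd3 (gene 12445, chromosome 17, 47505051 to 47599689) had the narrowest range of the 3, with 7 shared regions between −0.22 and 0.64. Its tallest region (47510895 to 47511958, inside the gene) had 356 in WT and 178 in dKO, a log2 ratio of −0.06 (−0.33 to 0.21). The region over its first start (47504610 to 47505331) had 130 and 102, a log2 ratio of 0.59 (0.20 to 0.98), and the one over its internal start (47593000 to 47594716) had 215 and 96, a log2 ratio of −0.22 (−0.58 to 0.13). The 1 dKO-only region, 47541969 to 47542294 inside the gene, had a pileup of 33 and a −log10 q of 22.5, the highest of the 9 dKO-only regions of the members.

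The Cip/Kip genes had 18 regions, 12 of them shared, and 10 of the 12 had a log2 ratio of scaled pileup below 0, while on fold enrichment 1 of 3 at Cdkn1a, 5 of 6 at Cdkn1b and 3 of 3 at Cdkn1c were above 0. Over all shared regions near genes these shares were 61.0% below 0 on scaled pileup and 58.0% above 0 on fold enrichment. All 3 shared regions of Cdkn1a (gene 12575, chromosome 17, 29090979 to 29100722) were lower in dKO on the scaled pileup, with a median of −0.81. Beyond the promoter given above, these were 2 regions within Trp53cor1, a noncoding RNA gene upstream. One (29078279 to 29079463) had 215 in WT and 64 in dKO, a log2 ratio of −0.81 (−1.23 to −0.40), and the other (29069180 to 29069578) had 47 and 12, a log2 ratio of −1.03 (−2.08 to −0.09). Both were also lower on fold enrichment, at 15.8 and 12.4 for the first and 7.63 and 3.49 for the second. The 2 dKO-only regions of Cdkn1a were short. The one inside the gene (29096867 to 29097273) had a pileup of 49 and a −log10 q of 7.15, and the WT list had a peak 922 bp away. The one 8.80 kb before it (29081977 to 29082199) had 14 and 2.73.

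Cdkn1b (gene 12576, chromosome 6, 134920401 to 134925525) encodes the inhibitor p27. Its tallest region was not the promoter but one 5.73 kb before it (134914183 to 134915259), with 539 in WT and 169 in dKO and a log2 ratio of −0.73 (−0.99 to −0.48). Fold enrichment there was 10.6 in WT and 9.14 in dKO. Beside these and the promoter, 4 shared regions on the higher-coordinate side had log2 ratios from −0.39 to 0.49, and 3 of them and the 1 WT-only region (134947447 to 134947828, pileup 31) lay within the noncoding gene Lockd. The 1 dKO-only region (134916832 to 134917340) had a pileup of 75 and a fold enrichment of 2.24, with a WT peak 1586 bp away.

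Cdkn1c (gene 12577, chromosome 7, 143458339 to 143461059), an imprinted gene that encodes p57, had 3 shared regions, all with log2 ratios below 0 (−0.50, −0.40 and −0.08) and intervals that include 0. The first of these, at its higher-coordinate end (143460395 to 143461117), was its tallest, with 114 in WT and 42 in dKO. On fold enrichment all 3 were higher in dKO. Its WT-only regions had pileups of 81 (143466302 to 143466737, −log10 q 21.1) and 21 (143445768 to 143445985).

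The INK4 genes had few regions. Cdkn2b (gene 12579, chromosome 4, 89306289 to 89311032), encoding p15, had beside its promoter a shared region 49.5 kb away within the noncoding gene Gm12610 (89359929 to 89360879), with 123 in WT and 35 in dKO and a log2 ratio of −0.87 (−1.46 to −0.32). Fold enrichment there was 14.5 and 9.66. A dKO-only region with a pileup of 12 (89350601 to 89351228) lay between them. Cdkn2c (gene 12580, chromosome 4, 109660876 to 109666756), encoding p18, had 2 regions, both shared. The one over its outer start (109665210 to 109667371) had 421 and 227, a log2 ratio of 0.05 (−0.19 to 0.29), and the one 3.48 kb past its other end (109656967 to 109658028) had 67 and 60, a log2 ratio of 0.78 (0.26 to 1.31).

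**Figure D4:**
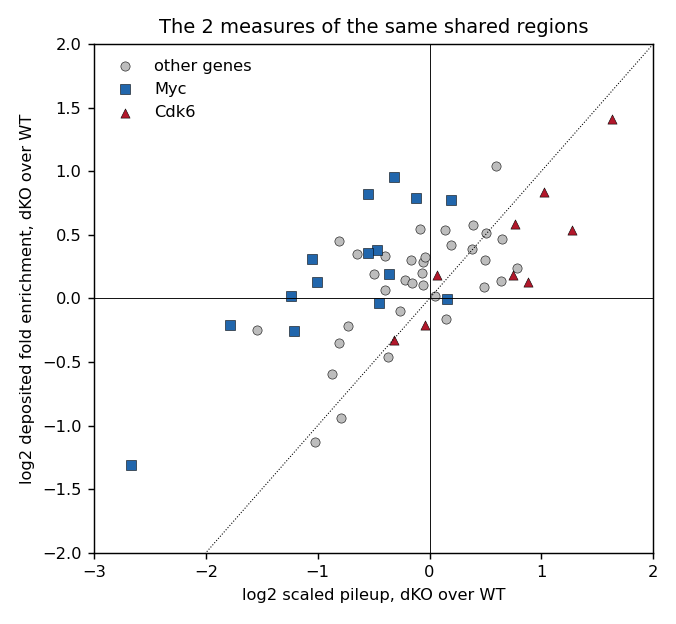
Log2 ratio of dKO over WT for the 58 shared regions, by scaled pileup (x axis) and by the deposited fold enrichment (y axis), with the dotted line where they are equal. Most Myc regions (squares) lie left of 0 on pileup and 10 of 15 above 0 on fold enrichment, while 7 of 9 Cdk6 regions (triangles) lie above 0 on both.

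Of the 82 summits 8 were within 1 kb of a gene end, 26 inside a gene body and 48 between genes, so 9.76%, 31.7% and 58.5%. Over all regions near genes these shares were 18%, 49.4% and 32.6%. Only the outermost ends of a gene counted as gene ends, so regions over internal starts counted as gene body. The Cdk6 promoter region and that of the downstream Cdkn1a start were among these, with summits 3182 and 2805 bp from the nearest gene end. Myc held 20 of the 48 regions between genes, and without it 28 of 61 lay there, 45.9%. Of the 15 WT-only regions 12 lay between genes, 6 of them at Myc, against 35.1% of all WT-only regions near genes. Of the 9 dKO-only regions 5 lay inside gene bodies, 3 of these in Cdk6, and the share over all dKO-only regions was about the same, 55.2%. At gene ends 7 of the 8 member regions were shared, against 90.2% of all regions at gene ends. The median distance between the WT and dKO summits of a shared region was 51.5 bp, against 45 bp over all shared regions near genes, and 2 of 58 were more than 200 bp apart, in Ccnd3 (241 bp) and Cdkn1b (240 bp). Among all shared regions near genes 10.2% were more than 200 bp apart. The median peak width of the shared regions was 927.5 bp for WT and 846 bp for dKO peaks.

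The limit of 100 kb left out further regions of Myc. The last ones inside, at 93.2 and 98.97 kb, had log2 ratios of −1.21 and 0.16, and the first ones outside, at 102.4, 108.5 and 116.3 kb, had −1.55, −0.997 and −0.51. At Ccnd1 the region next outside, at 116.9 kb, had 329 in WT and 73 in dKO, a log2 ratio of −1.23. Others outside were higher in dKO, with log2 ratios of 0.36 at 117.0 kb from Cdk6, 0.47 at 128.8 kb from Myc and 1.17 at 141.9 kb from Ccnd2. Ccnd1 had a dKO-only region at 118.2 kb and Myc one at 124.7 kb. The look outside the limit ended at 150 kb.

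Other genes of the cell cycle, 58 in number and including E2F, retinoblastoma and MYC partner genes, had 247 regions. Of these 56 were WT-only, 28 dKO-only and 163 shared, so 22.7%, 11.3% and 66.0%, near the background. Their shared regions had a median log2 ratio of −0.11, with 12 past 2-fold lower (7.36%) and 8 past 2-fold higher (4.91%). Of the 55 genes with a region, 26 leaned to WT and 8 to dKO by their single-list regions. Genes elsewhere leaned to WT too, though in a smaller share than 26 of 55. Over all 15902 genes with a region, 66.1% had a net count of WT-only minus dKO-only regions of 0 or less. The remaining genes leaned to WT, and 16.35% of all had −1 or less. These shares are not adjusted for the number of regions of a gene. The largest net excess in WT was at Cul1, a scaffold of the ubiquitin ligase that degrades p27, with 5 WT-only, 0 dKO-only and 3 shared regions (median log2 −1.02). Max, which encodes the partner protein of MYC, had 4 regions in WT alone and 1 in dKO alone, and Lin52, Ccng1 and Btg1 had the same net excess of 3. In dKO it was at E2f3 and E2f7, each with 0 WT-only and 3 dKO-only regions, followed by Ccne1, the gene of cyclin E1, with 0 and 2 and Gadd45a with 1 and 3.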

How the data were processed

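ATAC-seq peak tables of hair follicle stem cells were used, 1 per genotype, each covering 2 mice, per the labels. The submitters' processing notes name MACS2, Picard and Bowtie2 2.2.9, and the builds mm10 and GRCm38, without roles. The sources used here do not say how mice were pooled, nor whether reads were shifted or deduplicated. The deposited signal is the pileup at the summit, as whole numbers not scaled for depth. The deposited fold is a ratio with 1 added to both pileup and local background, so the latter could be recovered. The −log10 p and −log10 q columns of the authors have damaged header cells and were identified by position, and a Poisson p recomputed from pileup and background was within 0.001 of the former for 99.98% of WT and 99.997% of dKO peaks whose value was below 250.

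The lists held 68197 WT and 63548 dKO peaks, of which 5 and 3 mitochondrial ones were left out. The lowest background was 5.29 in WT and 2.73 in dKO, so the dKO list was the shallower if both were called alike, and depth limits what could be called there. Genes, start sites and promoter sequences came from RefSeq tables of GRCm38.p6. No genome sequence was used, so motifs were searched in promoters only. A called difference is 2-fold on pileup over the list median. The members and lists were chosen with earlier results of these data known. Named regions were, per gene, the shared region with the highest WT pileup, those within 1 kb of an end of the gene, up to 3 WT-only and 3 dKO-only regions by −log10 q and up to 3 shared regions past 2-fold in each direction, and other regions of these genes were added after their values were seen. Of the other cell-cycle genes, up to 3 in each direction by net count were named, with ties given, and for Myc and Cdk6 up to 3 genes with the same 3 counts and the closest median. The ratio step was tested on simulated data, and joining gave the same overlap counts as bedtools 2.31.1. Python 3.11.15, pandas 2.3.3 and scipy 1.17.1 were used.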

Additional observations from a re-analysis of the deposited data

How the results depend on the processing

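Depth, and the choice between pileup and fold enrichment, limit these results. With 1 list per genotype no mouse could be left out. No paired analysis was possible because each genotype has 1 list and the mice share no numbers. With nearest genes within 20 kb there were 6 WT-only regions of 54 in place of 15, or 11.1%. Of all regions near genes 21.1% were WT-only under that setting. Past 2-fold lower were 2 of 41 shared regions in place of 8, or 4.88%, against 8.15% of all shared regions. With the median of shared regions as the scale that count was 5 of 58, or 8.62%, against 6.26% of all. At a q value of 1e-05 or less it was 5 of 54, or 9.26%, against 8.01%. With deposited fold enrichment it was 2 of 58 (3.45%, against 2.62%), and without Myc 2 of 43 (4.65%, against 8.79%). The median log2 ratio of −0.14 became 0.021 with the median of shared regions as the scale, 0.19 with fold enrichment and 0.079 minus the median of regions of like height. Gene ends held 16 of 82 regions in place of 8 within 2 kb, with no share over all regions at hand for that distance. The other 38 values of these counts and medians were within 1.5 times the count or within the order-statistic interval of the median. Thinning WT to the dKO background, the subtraction by height and the setting without Myc were added after the data were seen. At Myc the net excess of 6 WT-only regions was 1 within 20 kb and 5 or 6 under the other settings, and at Cdk6 the net count of −3 was between −4 (both lists cut to the same length) and −2 (within 20 kb). The median log2 ratio of Cdk6 stayed above 0 under all settings tried, from 0.19 with fold enrichment to 0.93 with the median of shared regions as the scale. Fold enrichment did not set Cdk6 apart, since the median of all shared member regions was also 0.19 on it, against 0.075 over all shared regions near genes.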
